A study of Homo sapiens with 12 samples.

Results

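The comparison described here is that of BRD9 degradation in SMARCB1-deficient cells induced to express GFP. It holds 6 of the 12 ATAC-seq libraries of the series, chosen by their labels: 3 libraries of GFP-induced cells treated with dBRD9-A and 3 of GFP-induced cells treated with DMSO, the solvent control. All 12 libraries were made from G401, an established human rhabdoid tumour line of genotype SMARCB1(-/-), after 24 h of doxycycline, which induced either GFP or SMARCB1, and each induction was combined with DMSO or dBRD9-A. The GFP groups therefore lack SMARCB1 in both arms, and both carried doxycycline and the GFP transgene; the dose of dBRD9-A, the number of clones behind the line and whether the 3 libraries of a group were separate cultures are not given in the labels. The p-values below measure the spread between these libraries, which may be technical.

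SWI/SNF (BAF) complexes use ATP to slide and evict nucleosomes and so keep enhancers and promoters accessible. SMARCB1 is a core subunit of canonical BAF and of PBAF, and its loss defines rhabdoid tumours. BRD9, a bromodomain protein, belongs to a separate assembly, non-canonical BAF, which is built without SMARCB1 and on which SMARCB1-deficient cells are known to depend; dBRD9-A is a small-molecule degrader of BRD9. ATAC-seq reads out accessible DNA through the insertions of a transposase, and the lists describe the short, nucleosome-free fragments. The BRD9 protein level was not analysed here.

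The 6 lists held 43712, 35279 and 35586 peaks for DMSO libraries 1 to 3 and 33428, 35289 and 50089 for dBRD9-A libraries 1 to 3. DMSO library 1 and dBRD9-A library 3 were the deepest: the lowest background pileup of a list, taken here as a measure of depth, was 0.0678 and 0.0784 in them and lay between 0.0383 and 0.0446 in the other 4. Each treatment thus held 1 deep and 2 shallower libraries, and an unlisted region may be below detection in a shallow library. The genotype label was not checked against the SMARCB1 gene, as no hg19 annotation was used.

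Few regions were listed in every library of 1 treatment and in none of the other. The 6 lists merged, at an overlap of at least 1 bp, into 71577 regions spanning 11.7 Mb. Of these, 21084 regions (29.5%) were present in all 6 lists, and 27589 (38.5%) in only 1. The shared regions took up between 43% of the peaks of dBRD9-A library 3 and 64.5% of those of dBRD9-A library 1. Among the 5275 regions present in exactly 3 lists, 252 (4.78%) were in all dBRD9-A lists and no DMSO list, here called gained, and 229 (4.34%) were in all DMSO lists and no dBRD9-A list, here called lost. If the 20 arrangements of 3 lists among the 6 were equally frequent, gained and lost regions together would make up 10%. Presence in 3 lists, however, followed depth: dBRD9-A library 3 held 79.7% and DMSO library 1 held 68.7% of those 5275 regions, against 30.3% to 41.5% in the other 4 libraries. With every list shortened to the length of the shortest, 221 regions were gained and 317 lost, so that the larger of both counts changed sides.

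**Figure D1:**
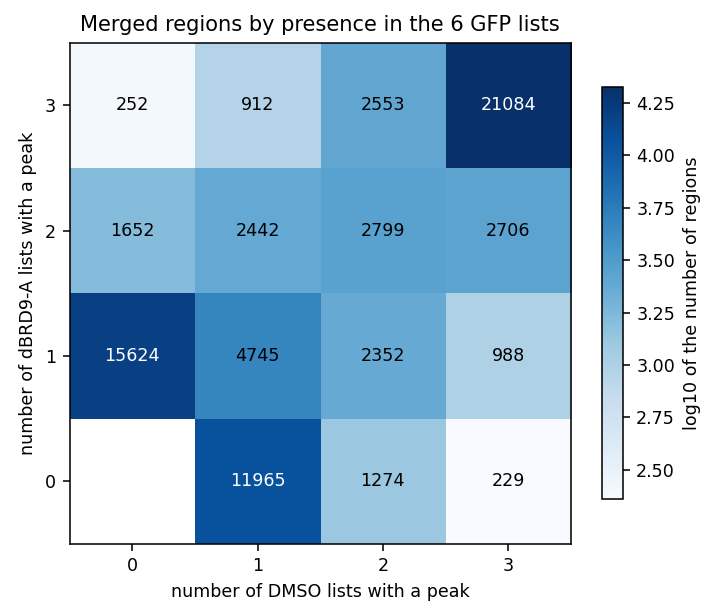
Number of merged regions by how many of the 3 dBRD9-A lists (vertical axis) and how many of the 3 DMSO lists (horizontal axis) held a peak; shading is the log10 of the number. The corner with all 6 lists holds 21084 regions, and the corners of 3 against 0 hold 252 and 229.

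Gained and lost regions were weaker than the regions of all 6 lists. The median over regions of the mean summit pileup, the number of fragments (or extended reads, since the setting is not stated) stacked at a peak's highest point, was 4.67 in gained and 6.67 in lost regions against 15.8 in regions of all 6 lists. The median width was 120.5 bp for gained regions, 169 bp for lost regions and 228 bp for regions of all 6 lists. Over all 5275 regions in exactly 3 lists the median pileup was 5 and the median width 127 bp. Gained regions were thus near that class, and lost regions were higher and wider than it. The 5 gained and 5 lost regions of highest mean rank are given next.

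The strongest gained region, chr3:136420914-136421003, had summit pileups of 23, 17 and 32 in dBRD9-A libraries 1 to 3 and no peak in any of the 6 SMARCB1 lists. The next, chr9:131460331-131460523, had 23, 25 and 29, and was listed in 5 of the 6 SMARCB1 lists. At chr3:195681897-195681989 the pileups were 16, 17 and 29, at chr7:29912395-29912479 they were 11, 11 and 9, and at chr2:112655841-112655979 they were 11, 11 and 13. All 5 were narrow, between 85 and 193 bp wide.

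Among the lost regions, chr19:47552569-47552846 had pileups of 24, 21 and 17 in DMSO libraries 1 to 3 and none listed with dBRD9-A. It was listed in all 6 SMARCB1 lists, with pileups of 30, 27 and 32 with DMSO and of 41, 17 and 29 with dBRD9-A, so its absence with dBRD9-A was not seen in the SMARCB1-induced cells. A wide lost region of 609 bp, chr8:130725663-130726271, had pileups of 36, 27 and 7. The other named lost regions were chr19:48112327-48112461, with 15, 8 and 16, chr10:73382088-73382242, with 14, 10 and 8, and chr12:31523909-31524020, with 10, 10 and 8.

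Most gained and lost regions were also listed in SMARCB1-induced cells. Of the gained regions 85.7%, and of the lost regions 75.5%, overlapped a peak of at least 1 SMARCB1 list, against 84.9% of all 5275 regions in 3 lists. Peaks of all 6 SMARCB1 lists overlapped 17.1% of the gained and 29.7% of the lost regions, against 19.7% of those 5275. The gained regions were found in 46.4%, 53.6% and 42.9% of cases in SMARCB1 libraries 1 to 3 with DMSO and in 52.4%, 46.4% and 56.3% with dBRD9-A. The lost regions were found in 51.1%, 58.5% and 49.3% with DMSO and in 52.4%, 43.2% and 55.5% with dBRD9-A. The groups overlapped in both cases. The difference was 4.10 percentage points for gained regions (51.7% ± 4.99 with dBRD9-A against 47.6% ± 5.46 with DMSO, SD, n = 3; exact two-sided permutation p = 0.5) and -2.62 points for lost regions (50.4% ± 6.36 against 53.0% ± 4.87, SD, n = 3; exact permutation p = 0.7). A design of 3 against 3 cannot give an exact two-sided p below 0.1. Adjusted by Benjamini-Hochberg for the 8 tests of 1 value per library, every p was 1.

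The extent of the listed accessible DNA overlapped between the treatments. The lists covered 7.20, 5.62 and 5.62 Mb with DMSO and 5.18, 5.44 and 7.94 Mb with dBRD9-A, and the deep library was the highest in each group. The mean difference was 0.045 Mb (exact two-sided permutation p = 1, n = 3 against 3). The median peak width was 119, 116 and 115 bp with DMSO and 113, 114 and 117 bp with dBRD9-A, a difference of -2 bp (exact permutation p = 0.4). Peak summits within shared regions lay a median of 10.3 bp apart between libraries of the same treatment and 10.2 bp apart between libraries of different treatments (exact permutation p = 1).

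The height of the shared regions was then compared. Within each list the 21084 shared regions were ranked by the authors' fold enrichment, the summit pileup plus 1 over the local background plus 1. The ranks were expressed as percentiles from 0 to 100. This puts lists of unequal depth on a common scale but need not remove every effect of depth. Ranks of libraries of the same treatment correlated with r between 0.743 and 0.801 across regions, and those of libraries of different treatments with r between 0.756 and 0.804. The highest r was that of the 2 deep libraries, DMSO library 1 and dBRD9-A library 3. The lowest was that of dBRD9-A libraries 1 and 3, a shallow and a deep one, although DMSO libraries 1 and 2, also of unequal depth, reached 0.801. The region at the top was the same in all libraries. This region, chr10:103124589-103124724, had folds of 99.2, 92.0 and 93.0 with DMSO and 94.6, 89.9 and 94.6 with dBRD9-A. The other 4 of the 5 highest shared regions, chr11:62608359-62609283, chr5:146587523-146587650, chr8:82754595-82754815 and chr9:99002286-99002394, had mean percentiles between 99.975 and 99.987.

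No shared region passed the test on percentiles: 0 of 21084 (0%) reached an adjusted p of 0.05 in limma with a variance trend and Benjamini-Hochberg adjustment, the lowest adjusted p being 0.978. At an unadjusted p of 0.05, 506 regions were higher and 529 lower with dBRD9-A, together 4.91% of all regions. The median standard error of a difference was 10.8 percentile points. A region of that error would have needed a difference of 79.6 points to pass at 0.05 divided by the number of regions (Bonferroni). That threshold is stricter than the Benjamini-Hochberg adjustment, and regions of smaller error need less, so 79.6 points is no limit of detection. Shifts of rank may still have been missed at this number of libraries. The groups did not overlap at 982 regions (4.66%) where dBRD9-A was higher and at 1161 regions (5.51%) where it was lower. Equally frequent arrangements of the libraries would give 10% in both directions together.

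The regions of lowest unadjusted p, which are given as values and not as changed regions, were larger in the downward direction. At chr8:104914431-104914809 the percentile was 83.4, 60.7 and 89.8 with DMSO and 8.85, 9.98 and 20.3 with dBRD9-A, a difference of -64.9 points (SE 13.4). At chr19:17246343-17246622 it was 83.9, 76.1 and 76.7 against 1.23, 9.98 and 38.2, a difference of -62.4 points (SE 13.8). These were mid- to high-ranking sites in all 3 DMSO libraries and low-ranking in all 3 dBRD9-A libraries. At chr5:14102156-14102429 the difference was -52.4 points, at chr17:67719487-67719879 it was -49.7 points, and at chr7:6322460-6322710 it was -47.2 points. In the upward direction the first was chr10:103874709-103874900, with percentiles of 3.75, 4.34 and 3.27 with DMSO against 48.2, 42.6 and 55.1 with dBRD9-A, a difference of 44.8 points. It was followed by chr17:17721374-17721688 (42.0 points), chr9:36036787-36036962 (39.3 points), chr15:44885337-44885438 (36.0 points) and chr12:132378852-132379291 (30.5 points).

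On the scale of summit pileups, a small set of regions did pass. Summit pileups were recovered as whole numbers from the deposited fold and p-value of each peak, and log2(pileup + 1) was centred on each library's median over the shared regions; below, a relative pileup is that value on the linear scale, so that 1 is the library's median shared region. Of the 21084 shared regions, 8 (0.0379%) were higher and 32 (0.152%) lower with dBRD9-A at a limma adjusted p of 0.05. The median difference over all shared regions was -0.01 on the log2 scale (SD 0.31). The groups did not overlap at 999 regions (4.74%) in the higher and 1339 regions (6.35%) in the lower direction, and at 39 of the 40 called ones. Over all shared regions, equally frequent arrangements of the libraries would again give 10% in both directions together. The count depended on the fit and on single libraries: limma called 0 regions without the variance trend, 0 without DMSO library 1 and 0 without dBRD9-A library 2, with 6.96%, 6.43% and 5.85% of regions at an unadjusted p of 0.05. It called 16 without DMSO library 2, of which 13 were higher, 21 without DMSO library 3, 20 without dBRD9-A library 1, 73 without dBRD9-A library 3 and 85 when all 12 libraries shared 1 estimate of the spread. With the replicate number as a block, 4 were higher and 20 lower, and of the 8 higher regions those at chr2:33141297-33141689, chr19:10571778-10572178, chr19:48918724-48918980 and chr5:11507-11643 did not pass (limma adjusted p from 0.053 to 0.109). Of the lower regions named below, chr10:123455316-123455905 did not pass with the block either (limma adjusted p = 0.053). With peaks of a −log10 q of at least 5 alone, 14 were higher and 15 lower, and with depth as a covariate 25 and 44. Each of the 40 regions kept its direction in every fit in which it could be matched. These fits reused the libraries that called the regions, so the direction could hardly change and is no test of the calls.

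**Figure D2:**
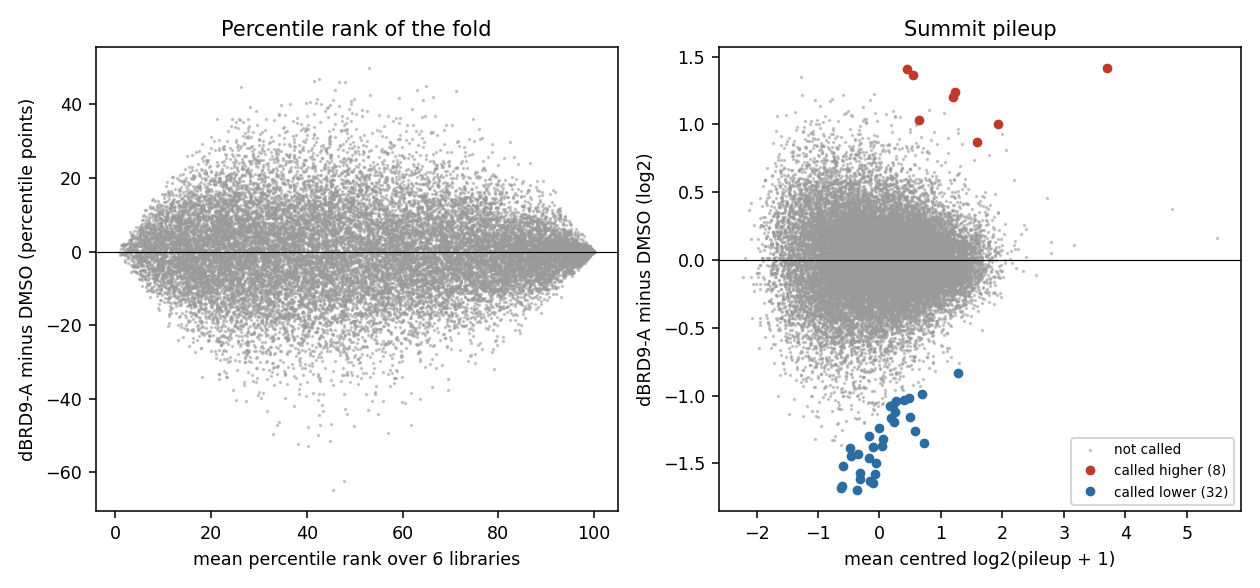
Difference between dBRD9-A and DMSO against the mean over 6 libraries for the 21084 shared regions, on percentile ranks of the fold (left, in percentile points) and on centred log2 summit pileups (right). Each point is a region; on the right 8 called regions lie above and 32 below the cloud, and on the left none is called.

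The 32 lower regions fell by between 1.78-fold and 3.25-fold. They lay on 16 chromosomes, and 31 of them were wider than the median shared region; their median width was 458 bp against 228 bp over all shared regions, and 21 of the 32 were in the widest of 5 equal bins. Width moved with the treatment difference over all shared regions too, though far less: the median log2 difference went from 0.04 in the narrowest bin to -0.04 in the widest. What width contributes to the calls was not tested. In 5 equal bins of the mean percentile, 12 lay in the second (23.8 to 39.7) and 15 in the third (39.7 to 57.8). That mean is over all 6 libraries and includes the dBRD9-A libraries in which the regions were called lower. Over the DMSO libraries alone their mean percentiles ran from 35.2 (chr10:52612146-52612556) to 95.1 (chr22:16373959-16374122).

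The fall of the greatest size was again at chr8:104914431-104914809. Its relative pileup was 1.41, 1.07 and 1.79 in DMSO libraries 1 to 3 and 0.385, 0.429 and 0.478 in dBRD9-A libraries 1 to 3. The summit pileups were 30, 14 and 24 against 4, 5 and 10. The group means of the relative pileup were 1.42 ± 0.357 and 0.430 ± 0.047 (SD, n = 3), a 3.25-fold fall (log2 difference -1.70, SE 0.30, limma adjusted p = 0.0081). In the SMARCB1-induced cells the same treatment left this site at a log2 difference of 0.05.

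The next, chr10:52612146-52612556, had a relative pileup of 1.36, 1.36 and 0.857 with DMSO and of 0.385, 0.357 and 0.348 with dBRD9-A (3.21-fold lower). It had no peak in any SMARCB1 list. At chr17:67719487-67719879 the values were 1.0, 1.5 and 1.07 against 0.462, 0.50 and 0.217 (3.18-fold lower), with a peak in 1 of the 6 SMARCB1 lists. Both were thus regions listed in all GFP libraries and nearly or wholly unlisted after SMARCB1 induction, although the SMARCB1 lists are the longer ones.

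At chr2:47261369-47261911 the relative pileup was 2.0, 1.43 and 1.57 with DMSO and 0.462, 0.429 and 0.739 with dBRD9-A (3.13-fold lower, log2 difference -1.65, SE 0.28, limma adjusted p = 0.0081). At chr2:86225210-86225700 it was 1.68, 1.57 and 1.5 against 0.538, 0.357 and 0.696 (3.09-fold lower). At chr19:17246343-17246622 it was 1.45, 1.36 and 1.43 against 0.308, 0.429 and 0.739 (3.07-fold lower). In these 3 regions each dBRD9-A library, the deep one included, was under each DMSO library, and the deep dBRD9-A library 3 was the nearest to the DMSO group.

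At chr5:134778565-134779298, 734 bp wide, the values were 1.95, 1.79 and 1.29 against 0.615, 0.571 and 0.478 (2.99-fold lower). At chr1:43457556-43457945 they were 1.41, 1.64 and 1.14 against 0.462, 0.357 and 0.609 (2.98-fold lower). A further pair lay on chromosome 19. At chr19:43355158-43355860 the values were 1.55, 1.29 and 0.714 against 0.462, 0.429 and 0.304 (2.87-fold lower), and at chr19:43532980-43533339 they were 1.73, 1.64 and 1.5 against 0.692, 0.571 and 0.478 (2.82-fold lower). The 4 uncalled shared regions within 50 kb of the latter all had lower pileups with dBRD9-A.

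**Figure D3:**
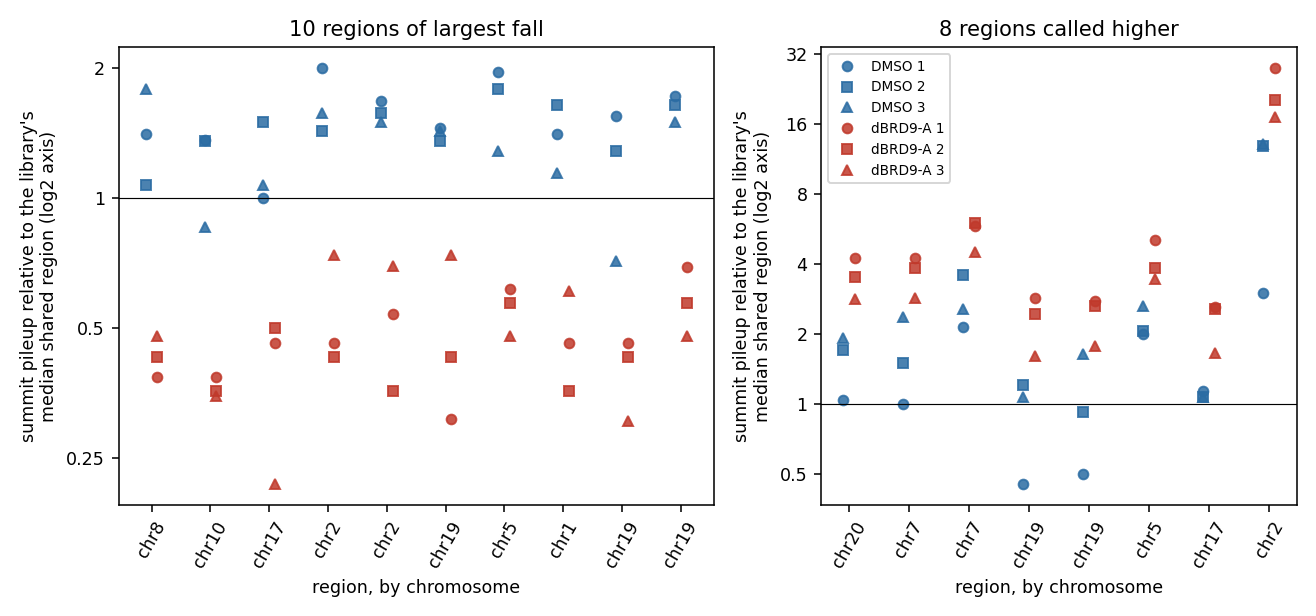
Relative summit pileup (1 is the library's median shared region, log2 axis) in each of the 6 GFP libraries for the 10 lower regions of largest fall (left) and the 8 higher regions (right), named by chromosome. Blue points are DMSO and red points dBRD9-A libraries, and marker shapes are library numbers; the groups do not overlap in any of these regions.

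On chromosome 10, 3 lower regions stood within 29.9 kb (chr10:123440515-123470384), a stretch in which 6 shared regions lay and all 6 had lower pileups with dBRD9-A. Relative pileups at chr10:123440515-123441178 were 2.55, 2.36 and 2.0 with DMSO and 1.23, 1.36 and 0.913 with dBRD9-A. At chr10:123455316-123455905 they were 2.09, 1.86 and 2.0 against 1.08, 1.0 and 0.870, and at chr10:123469814-123470384 they were 1.86, 1.93 and 1.57 against 1.08, 0.714 and 0.609. These 3 fell by 1.99-fold, 2.02-fold and 2.29-fold. The 3 uncalled regions between them had log2 differences of -0.96, -0.17 and -0.81. On percentiles the 3 called regions differed by -16.7, -17.0 and -16.9 points (limma unadjusted p from 0.155 to 0.235). The 3 uncalled ones differed by -11.4, 17.2 and -3.85 points, so the stretch was not lower throughout on that scale. In the SMARCB1 libraries the 3 called regions had log2 differences of -0.14, -0.15 and -0.25.

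Sites beside the lower regions were also lower. Within 50 kb of the 32 regions lay 78 other shared regions, none of them called, and 60 of these (76.9%) had a lower pileup with dBRD9-A, against 50.8% of all shared regions. Their median log2 difference was -0.24, against -0.01 over all. The median relative pileup of these neighbours was 1.09, 1.07 and 1.0 in DMSO libraries 1 to 3 and 0.884, 0.892 and 0.804 in dBRD9-A libraries 1 to 3. All 3 dBRD9-A libraries were under all 3 DMSO libraries. The groups did not overlap at 22 of the 78 (28.2%) in the lower and at 2 (2.56%) in the higher direction, against 6.35% and 4.74% of all shared regions. The neighbours were chosen for lying beside regions called in the same libraries, so these values describe the extent of the lower stretches and are not a test of them.

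**Figure D4:**
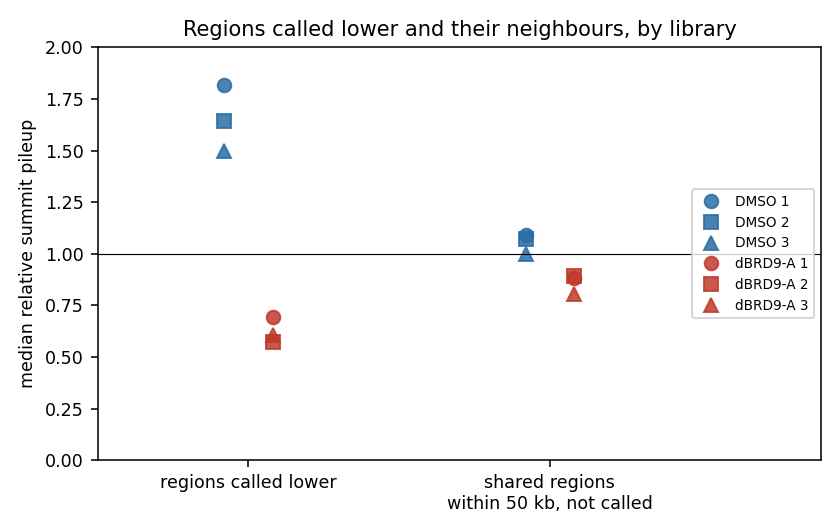
Median relative summit pileup in each GFP library over the 32 regions called lower and over the 78 uncalled shared regions within 50 kb of them. Each point is a library; in both sets the 3 dBRD9-A libraries (red) lie under the 3 DMSO libraries (blue), and the gap is smaller among the neighbours.

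The 8 higher regions rose by between 1.83-fold and 2.66-fold, and their median width was 286 bp. At chr20:62579925-62580040, 116 bp wide, the relative pileup was 1.05, 1.71 and 1.93 with DMSO and 4.23, 3.50 and 2.83 with dBRD9-A (2.30-fold higher, log2 difference 1.2, SE 0.21, limma adjusted p = 0.0081). At chr7:10003-10225 it was 1.0, 1.5 and 2.36 against 4.23, 3.86 and 2.87, and at chr5:11507-11643 it was 2.0, 2.07 and 2.64 against 5.08, 3.86 and 3.43. The last 2 lie within 20 kb of a chromosome start. Such sites hold repeats in which short reads have many near-identical matches, so their levels are uncertain. Of the 21084 shared regions 4 lay so near a chromosome start, all 4 had higher pileups with dBRD9-A, and 2 of them were called.

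At chr2:33141297-33141689, the most intense of the 8, the relative pileup was 3.00, 12.9 and 13.1 with DMSO and 27.7, 20.3 and 17.0 with dBRD9-A. DMSO library 1 stood far under the other DMSO libraries there. The other higher regions were chr7:1099184-1099705 (2.01-fold), chr19:48918724-48918980 (2.66-fold), chr19:10571778-10572178 (2.58-fold) and chr17:17721374-17721688 (2.04-fold). In 7 of the 8 regions DMSO library 1 was the lowest library, and in 7 of them dBRD9-A library 1 was the highest. Of the 28 uncalled neighbours of the higher regions 12 (42.9%) were lower, against 50.8% of all shared regions, and their median log2 difference was 0.04.

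The same treatment was then read in the SMARCB1-induced cells, whose 6 lists were not used to call these regions. At the 39539 regions shared by the SMARCB1 lists, limma called 0 (0%) on percentiles and 0 (0%) on summit pileups, with 1124 and 888 regions at an unadjusted p of 0.05. Of the 32 lower regions, 28 were present in all 12 lists. Their median relative pileup, scaled over the 18114 regions of all 12 lists, was 1.67, 1.47 and 1.40 in GFP DMSO libraries 1 to 3 and 0.679, 0.531 and 0.580 in GFP dBRD9-A libraries 1 to 3. It was 1.61, 1.40 and 1.5 in SMARCB1 DMSO libraries 1 to 3 and 1.3, 1.14 and 1.36 in SMARCB1 dBRD9-A libraries 1 to 3. Libraries with SMARCB1 and dBRD9-A were a little under those with SMARCB1 and DMSO. The GFP libraries with dBRD9-A were the lowest, but the regions were called for being low in them, so that order is not a test. Presence in all 12 lists also left out chr10:52612146-52612556, with no SMARCB1 peak, and chr17:67719487-67719879, with a peak in 1 of the 6 SMARCB1 lists. Left out as well were chr4:65595268-65595551, listed in 2 SMARCB1 DMSO lists and 1 SMARCB1 dBRD9-A list, and chr11:7917704-7918294, listed in 2 and 3. The 28 regions were thus held to a peak in every SMARCB1 list, so the loss of a peak there could not be seen among them. Region by region, the median log2 difference was -0.09 in SMARCB1 cells, against -1.33 in the GFP libraries that chose the regions, and 21 of the 28 were lower, against 47.4% of all 18114 regions. For the 8 higher regions the median was 0.18, and 6 of 8 were higher.

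**Figure D5:**
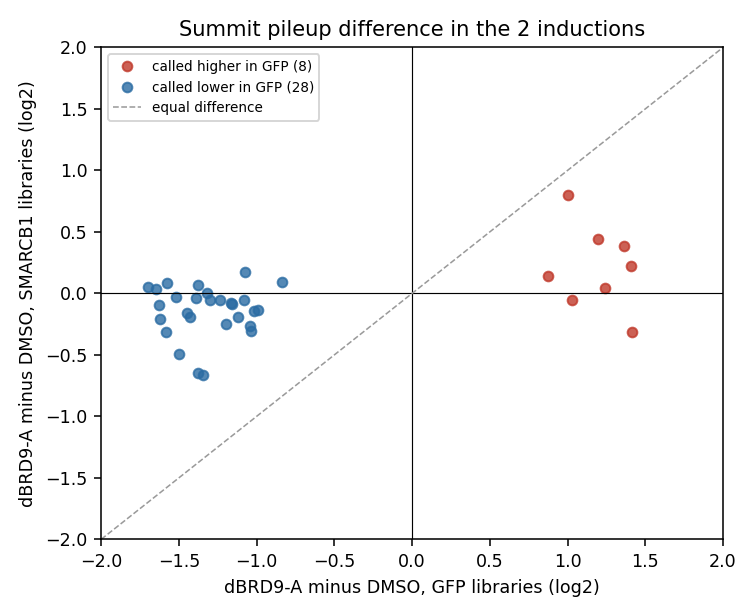
Log2 summit pileup difference between dBRD9-A and DMSO in the SMARCB1 libraries (vertical axis) against that in the GFP libraries (horizontal axis) for the 36 called regions present in all 12 lists. The 28 lower regions (blue) lie between -0.66 and 0.18 on the vertical axis, and the dashed line marks equal differences.

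Whether the difference depended on the induction was tested as an interaction in limma over the 18114 regions of all 12 lists. On percentiles 0 regions (0%) passed, with 748 at an unadjusted p of 0.05 and a lowest adjusted p of 0.9999. On summit pileups 1 region (0.00552%) passed, chr2:47261305-47261911, which holds the lower region of chromosome 2 named above. Its relative pileup on this scale was 1.83, 1.25 and 1.47 in GFP DMSO libraries and 0.429, 0.375 and 0.680 in GFP dBRD9-A libraries, against 2.50, 2.30 and 2.75 in SMARCB1 DMSO libraries and 3.00, 2.21 and 2.55 in SMARCB1 dBRD9-A libraries. The difference was -1.65 in GFP cells and 0.03 in SMARCB1 cells, an interaction of -1.68 (SE 0.31, limma adjusted p = 0.0426). No region passed in 10 of the 12 fits that left out a library; the 2 with a call left out GFP DMSO library 2 or GFP dBRD9-A library 3. For the other 27 lower regions in all 12 lists the difference between inductions was on the same side, which their choice in the GFP libraries favours. It did not pass, so a dependence on the induction was not shown for them.

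A fit of percentiles over all 12 libraries, which pools the spread of the 4 groups, called 3 regions lower in GFP cells with dBRD9-A and none higher. All 3 overlap regions called lower on the pileup scale. At chr19:17246317-17246622 the percentile was 81.3, 72.3 and 73.0 in GFP DMSO libraries, 0.748, 6.79 and 31.0 in GFP dBRD9-A libraries, 89.7, 97.5 and 95.4 in SMARCB1 DMSO libraries and 93.9, 80.7 and 82.5 in SMARCB1 dBRD9-A libraries. At chr16:29302213-29302556 the GFP dBRD9-A libraries were at 32.7, 27.7 and 16.2, and the other 9 libraries between 64.4 and 99.2. At chr7:6322428-6322710 the GFP dBRD9-A libraries were at 37.2, 34.2 and 22.6, and the other 9 between 76.7 and 99.5. In each of these 3 regions the GFP cells with dBRD9-A were the only group whose libraries lay in the lower ranks, and the regions were called for being lower in that group.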

How the data were processed

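The members and the region lists were chosen with earlier results of these data known. Each library had 1 deposited peak list; per the submitters' processing notes the build is hg19 and the tools include BWA 0.7.12-r1039, SAMtools 1.2, bedtools 2.24.0, MACS2 2.1.1.20160309, DiffBind and DESeq2, with settings not given in the sources used here. Each list held peaks of its own, so calling was per library. The deposited fold of a peak (a ratio of summit pileup to background, read with 1 added to each), its −log10 p and −log10 q are the authors' values. The summit offset in the deposited lists gave the position of the summit. Whole-number pileups were recovered from fold and −log10 p, and all peaks matched their p within 0.001 of −log10 p. Pileups are stacked fragments or extended reads, as the setting is not stated, and not counts of reads over a region. The summit pileup fit was listed as another scale for the rank result and became a result of its own after its calls had been seen, as did the neighbour and SMARCB1 readings of its regions.

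Lists were merged at 1 bp. limma 3.58.1 (eBayes with trend, Benjamini-Hochberg adjustment) ran on all shared regions, and single values per library used exact permutation. A limma run on simulated data set the noise alike for all regions and is no support for the calls in these data. Named regions were the 5 of lowest p per direction with groups apart, the 5 gained and 5 lost of highest mean percentile, and the 5 highest shared; the 8 higher and 10 lower pileup regions, and the stretch of chromosome 10, were chosen after their values were seen. The labels do not say that equal replicate numbers mark a shared culture or day, and the fits were made without the number as a block. Alternatives covered the scale, the q threshold, region definition, depth, the replicate block and each library left out. Gene names, promoters and sequences were not used here, as the reference tables are of another build. Read depth is unknown, and the lowest background pileup of a list stands in for it.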

Additional observations from a re-analysis of the deposited data

Results flagged for a closer look

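At chr2:47261305-47261911 the effect of dBRD9-A on the summit pileup differed between the inductions in the limma interaction test (-1.68 on the log2 scale, adjusted p = 0.0426), with a lower pileup in all 3 GFP dBRD9-A libraries than in all 3 GFP DMSO libraries and overlapping groups in the SMARCB1 libraries. On quantile-normalized pileups 1 region passed as well (lowest limma adjusted p = 0.0427). Over the other fits of this interaction, those that left out a library included, the lowest limma adjusted p of any region ranged from 0.0021 to 0.445. These lowest values, that of the quantile-normalized fit included, are over all regions and need not belong to this region.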

How the results depend on the processing

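The rank result called 0 regions under its alternatives except on log2 summit pileups (40), in the fit of all 12 libraries (3) and, added after seeing the data, on normal scores with the replicate block (1, at chr22:16373959-16374122); the replicate block alone and each library left out gave 0. The summit pileup result of 40 became 24 (4 higher, 20 lower) with the replicate block, 69 with depth as covariate, 0 without the variance trend, 15 with presence by 50% cover, 85 with all 12 libraries and 0 to 73 with a library left out; of the 40 regions, 24 passed with the block. The cause was not tested. The pileup interaction of 1 region stayed at 1 on quantile-normalized pileups and with the replicate block, and became 0 to 4 with a library left out, and the percentile interaction stayed at 0. Gained regions numbered 160 at a −log10 q of at least 5, 1904 under the rule of at least 2 of 3, and 411 to 1101 with a library left out; lost regions numbered 1503 under that rule and 335 to 970 with a library left out, since fewer lists must agree. The difference in peak number ranged from -3834 to 4497 with a library left out. The difference in covered bases was -0.075 Mb at the stricter q, -0.12 Mb at equal list length and -0.83 to 0.57 Mb with a library left out. The Jaccard contrast was 0.0017, -0.0015 over merged regions and -0.0059 to 0.012 with a library left out. The share of lost regions differed by -5.17 to 0.946 points with a library left out. For the neighbours, the treatment difference of the library medians was -0.29 on the log2 scale. It stayed between -0.33 and -0.25 with a library left out and the set of neighbours kept as it was. Whether the replicate numbers pair the libraries is not given in the labels, although the numbers that open the titles run together within a replicate number. The deviations of same-numbered libraries from their group means correlated at -0.05, 0.10 and 0.03 on percentiles and at 0.05, 0.11 and 0.11 on pileups, under the 0.1 set for pairing in at least 1 pair of each scale; on pileups each of the 6 libraries correlated best with its own number, a hint from the data and not from the design. The replicate block changed no other call. Depth limits presence calls of weak regions, and 3 libraries per group limit rank differences.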
